A study of Mus musculus with 4 samples.

Results

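The imprinted Snrpn-Ube3a and Ndn domain of mouse chromosome 7 was taken as the bins of 40 kb from 500 kb before the first to 500 kb after the last body of 5 genes, Ube3a, Snrpn, Ndn, Magel2 and Mkrn3. In mm9 it covered chr7:65960001-70080000, which is 103 of the 3814 bins of chromosome 7 and of the 66382 bins of the genome. The member genes were chosen by name and position, but with earlier results of these data known. Contacts were measured by Hi-C, in which DNA ends that lie close in the nucleus are ligated and sequenced as read pairs, in male mouse embryonic stem cells (mESCs). The WT group is labelled as carrying an intact Firre gene and the Firre KO group as carrying a deletion of Firre, a long non-coding RNA locus of the X chromosome. Each group had 2 libraries, which the methods describe as technical and not biological replicates, pooled into 1 matrix. Differences between the matrices therefore cannot be set against the spread of replicates, and no test was possible.

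The WT cells were the N3 line. Both groups were grown with inhibitors of MEK and GSK3, and the methods add irradiated feeder fibroblasts, removed before use, for the Firre KO cells, although feeders are named for both groups elsewhere in the study. Whether the Firre KO cells came from N3 is not said. Labelled genotype, culture and possibly the parental line may therefore have differed together and cannot be told apart, and what feeder cells remained after depletion was not measured. Neither matrix separates the maternal from the paternal chromosome, so every value is a sum over both alleles. The bin wholly inside Firre, chrX:47920001-47960000, held 1782 read pairs in WT and 2011 in the other matrix, 3.53 and 3.61 times the median of 6 flanking bins. The deletion that the study describes for its Firre KO mouse spans the whole of this bin. That bin was not depleted, so the genotype of the second matrix rests on its label. The second matrix is called the Firre KO-labelled matrix for this reason. The total was 65611035 read pairs for WT and 46635652 for the other matrix, of which 16.1% and 35.6% joined different chromosomes.

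Genomic imprinting marks a gene by its parent of origin, so that the copy from 1 parent is used and the other is silent. In this domain an imprinting centre at the Snrpn promoter, methylated on the maternal chromosome, controls genes spread over several megabases. Loss of the paternal copy of the orthologous human region causes Prader-Willi syndrome, and loss of maternal UBE3A causes Angelman syndrome. The members lie in a proximal and a distal group. Ube3a, which encodes a ubiquitin ligase used from the maternal copy in neurons, lies on the plus strand at chr7:66484122-66562097. Snrpn, which encodes the spliceosomal protein SmN and is used from the paternal copy, lies on the minus strand at chr7:67127388-67285105. Far distal to both are 3 short paternally used genes. Ndn encodes the MAGE family protein necdin and lies on the plus strand at chr7:69493163-69494814. Magel2, another MAGE family gene, lies on the plus strand at chr7:69521865-69526526, and Mkrn3, which encodes a makorin RING finger protein, on the minus strand at chr7:69562479-69565039.

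The domain was divided by these gene bodies into 5 segments. The proximal flank covered chr7:65960001-66480000 (13 bins) and held part of Atp10a, a phospholipid-transporting ATPase gene. The Snrpn-Ube3a side covered chr7:66480001-67320000 (21 bins), with 3 bins for Ube3a and 5 for Snrpn. The gene-poor stretch between the sides covered chr7:67320001-69480000, 54 bins or 2160 kb. The Ndn side covered chr7:69480001-69600000, 3 bins that held Ndn, Magel2 and Mkrn3 in that order. The distal flank covered chr7:69600001-70080000 (12 bins) and held Peg12, another paternally used gene. The annotation listed 208 genes in the domain, of which 12 were protein-coding, 167 were snoRNAs and 23 were miRNAs. The gene-poor stretch held 2 of the protein-coding genes and all 23 miRNAs, and 32 of its 54 bins held no annotated gene.

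Of the 167 snoRNAs, 164 belonged to 2 arrays that lie between Ube3a and Snrpn. SNORD115 was annotated in 137 copies at chr7:66597596-66874465 and SNORD116 in 27 copies at chr7:66928831-67068008, and Snord64 and SNORD107 lay between SNORD116 and Snrpn. Both families are C/D box snoRNAs, a class of RNAs that guides methylation of other RNAs. The SNORD115 copies had 57 different sequences, with 33 copies sharing the commonest, at a median spacing of 1871 bp. The SNORD116 copies had 10 different sequences, with 18 sharing the commonest, at a median spacing of 2530.5 bp. The commonest copy of each family is shown here to let the repetition be seen, with the most different copy of the same length in the same family, in which capitals mark the bases that differ (mm9, 5′ to 3′ on the minus strand).
SNORD115 commonest copy, chr7:66648931-66649009: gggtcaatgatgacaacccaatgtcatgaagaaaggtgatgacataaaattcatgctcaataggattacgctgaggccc
SNORD115 most different copy, chr7:66599443-66599521: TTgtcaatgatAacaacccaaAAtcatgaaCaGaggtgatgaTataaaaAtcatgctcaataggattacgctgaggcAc
SNORD116 commonest copy, chr7:66933879-66933972: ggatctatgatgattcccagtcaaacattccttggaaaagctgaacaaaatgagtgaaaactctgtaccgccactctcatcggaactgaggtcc
SNORD116 most different copy, chr7:67049641-67049734: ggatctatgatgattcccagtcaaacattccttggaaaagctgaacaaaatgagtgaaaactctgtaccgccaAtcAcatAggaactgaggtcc
The shown pairs differ at 10 of 79 bases in SNORD115 and at 3 of 94 in SNORD116.

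The distal part of the stretch held the miR-344 family of miRNAs. All 13 hairpins that RefSeq lists could be matched to the mm9 sequence, from chr7:68828010 to chr7:69230196 on the minus strand, and Mir344h-1 and Mir344h-2 have the same hairpin sequence and could not be told apart. Mature sequences of 6 arms are shown because they carry the seeds that different miRNAs of the family share, with the seed (bases 2 to 8) in capitals (RefSeq, GRCm38.p6, 5′ to 3′).
mmu-miR-344-3p: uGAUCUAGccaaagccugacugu
mmu-miR-344c-3p: uGAUCUAGucaaagccugacagu
mmu-miR-344d-3p: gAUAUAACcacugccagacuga
mmu-miR-344e-3p: gAUAUAACcaaagccugacuau
mmu-miR-344b-5p: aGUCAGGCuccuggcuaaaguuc
mmu-miR-344c-5p: aGUCAGGCugcuggcuagaguac
Each pair of neighbouring lines shares 1 seed, and the seed of the last pair is carried by 6 different mature sequences of the family. A Hi-C bin can hold several of these hairpins, so contacts are given for the stretch and not for single miRNAs.

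Much of the snoRNA arrays could not be read in either matrix. The correction had dropped 8 bins of the domain from both, all of them on the Snrpn-Ube3a side and between Ube3a and Snrpn, and 1 of the 8 was made wholly of unknown bases. In the dropped bins a median of 82.9% of the 31-base words recurred elsewhere on chromosome 7, against 17.5% in the domain bins kept in both matrices and 7.10% in all such bins of chromosome 7. They held a median of 1 HindIII site, the enzyme used to cut the chromatin, against 12 in the kept bins of the domain. Only the Firre KO-labelled matrix kept the bins at chr7:66880001-66920000 and chr7:68480001-68520000. The bins of all 5 members were kept in both. Depth was low in most of the domain, with a median of 767 read pairs per kept bin in WT (258 to 2632) and 670 in the Firre KO-labelled matrix (213 to 2104). The medians over autosomal bins were 1905 and 1366, which some bins of the flanks exceeded, such as chr7:66040001-66080000 with 2632 and 2104 read pairs.

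**Figure D1:**
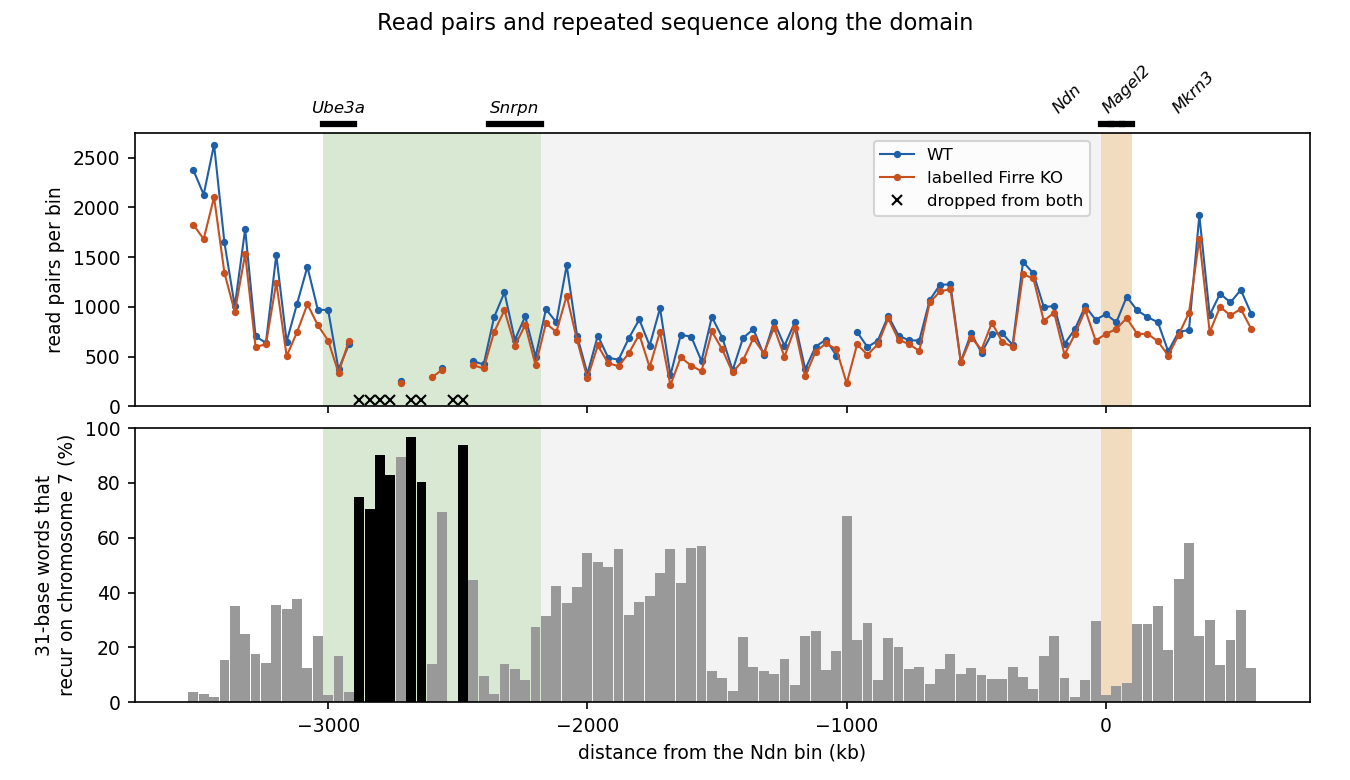
Read pairs per 40 kb bin in each matrix (top) and the share of 31-base words of each bin that recur on chromosome 7 (bottom, in percent), against distance from the Ndn bin in kb, with the Snrpn-Ube3a side in green, the gene-poor stretch in grey and the Ndn side in orange. Crosses and black bars mark the 8 bins dropped from both matrices, 1 of which has no bar because its bases are unknown, and all 8 lie between Ube3a and Snrpn.

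Both matrices held a block of frequent contacts between the Ndn side and the beginning of the gene-poor stretch, about 2 Mb away. Contacts are given as observed over expected, where the expected value is the mean of chromosome 7 at the same distance. Between the 3 bins of Ndn, Magel2 and Mkrn3 and the first 720 kb of the stretch, chr7:67320001-68040000, 116 read pairs in WT gave 4.66 (95% counting interval 3.78 to 5.78) and 119 read pairs in the Firre KO-labelled matrix gave 5.90 (4.82 to 7.24). The log2 ratio of the Firre KO-labelled matrix over WT was 0.34 (-0.06 to 0.74), and its interval holds 0. Blocks of the same shape were placed at every other autosomal position, and 10 of 57272 were as high in WT and 63 in the Firre KO-labelled matrix. The log2 ratio was above 1 in 5.51% of these blocks and below -1 in 20.6%. The 720 kb were chosen after the values were seen, so this count describes the place of the block and is no test. The other blocks were not matched for depth, which is lower here.

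Each of the 3 genes was above expectation in this block. Ndn had 4.37 (3.03 to 6.42) in WT and 6.02 (4.08 to 8.83) in the Firre KO-labelled matrix, from 40 and 37 read pairs. Magel2, in the middle bin, had 6.06 (4.35 to 8.52) and 7.34 (5.34 to 10.2), from 47 and 49 read pairs. Mkrn3 had 3.56 (2.25 to 5.56) and 4.34 (2.94 to 6.54), from 29 and 33 read pairs. Magel2 was the highest in both matrices, but the intervals of the 3 genes overlapped in each. The last 360 kb of the stretch, just proximal to Ndn, had 4.08 (3.63 to 4.60) and 4.46 (3.96 to 5.06) with the same 720 kb, while the distal flank, just beyond Mkrn3, had 1.76 (1.46 to 2.14) and 1.78 (1.45 to 2.21).

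The size of these values rests on the correction. The Ndn side had low read counts, and in uncorrected read pairs its value with the first 720 kb was 1.35 in WT and 2.0 in the Firre KO-labelled matrix, with a log2 ratio of 0.57 (0.19 to 0.94), an interval that excludes 0. Uncorrected values are not adjusted for the low depth of the domain. They were 0.26 and 0.28 for all its bin pairs 40 to 360 kb apart and 0.55 and 0.57 for those from 1 to under 2 Mb apart. The uncorrected values of the block were higher than these, and the part of depth was not tested. The first 720 kb of the stretch were rich in repeated sequence, with a median of 42.8% of words recurring on chromosome 7 against 12.2% in the rest of the stretch. Of the words of the Ndn side, 2.25% also occurred in the first 720 kb of the stretch, as did 5.81% of those of the last 360 kb of the stretch, 10.8% of those of the distal flank and 9.81% of those of the proximal flank. The part of repeated sequence in the block was not tested.

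Both sides had higher values with the far end of the stretch than with its near end. In 6 windows of 360 kb, the Ndn side had 1.08 (0.95 to 1.23) in WT and 0.84 (0.71 to 1.01) in the Firre KO-labelled matrix with the nearest window. It had 1.06 and 1.08 with the window that begins at chr7:68400001, and 4.45 (3.33 to 5.99) and 6.04 (4.60 to 8.02) with the one that begins at chr7:67680001. The farthest window, chr7:67320001-67680000, gave 4.87 (3.57 to 6.68) and 5.75 (4.22 to 7.87). The Snrpn-Ube3a side had 0.77 (0.63 to 1.00) with its nearest window and 2.57 (2.05 to 3.36) with the window next to Ndn in WT. In the Firre KO-labelled matrix these values were 0.71 (0.55 to 0.97) and 1.48 (1.06 to 2.20).

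**Figure D2:**
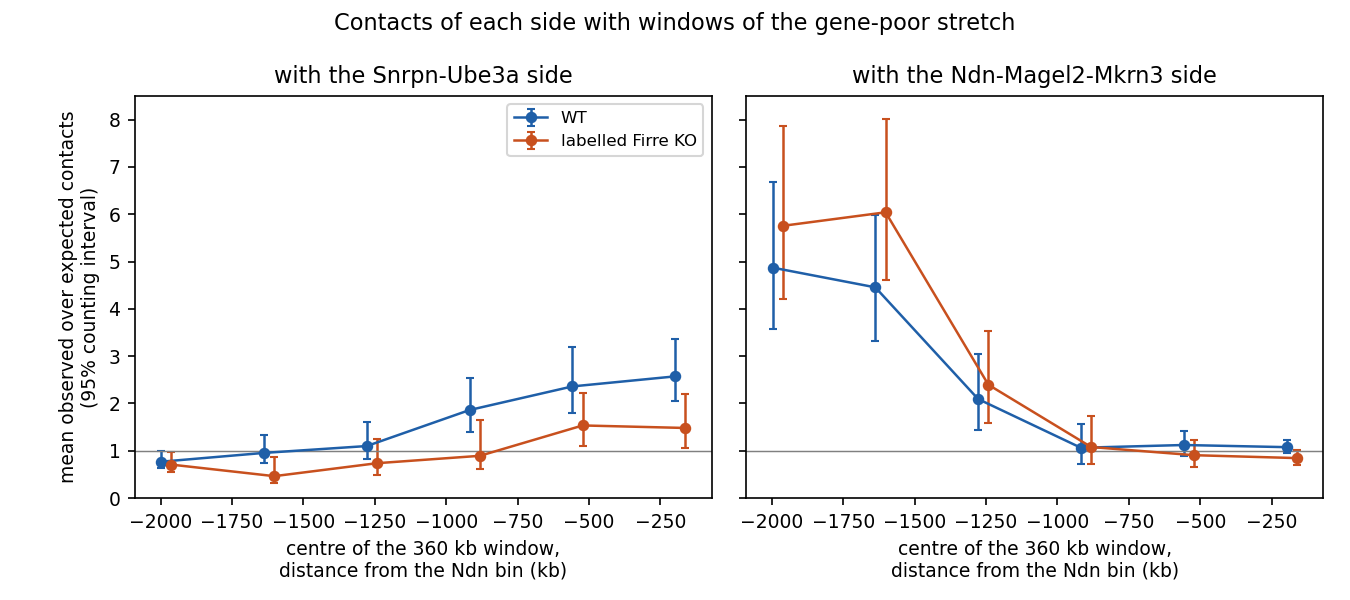
Mean observed over expected contacts of the Snrpn-Ube3a side (left) and the Ndn side (right) with 6 windows of 360 kb of the gene-poor stretch, against the distance of the window from the Ndn bin in kb, with bars for 95% counting intervals. The Ndn side is near 1 with the nearest windows and at 4.45 to 6.04 with the 2 farthest in both matrices, while the Snrpn-Ube3a side has 2.57 in WT and 1.48 in the other matrix with the window next to Ndn.

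As a mean over its bin pairs, the gene-poor stretch contacted itself above expectation in both matrices. Within it, 8080 read pairs in WT gave 1.79 (1.71 to 1.87) and 5563 in the Firre KO-labelled matrix gave 1.73 (1.64 to 1.82). This level depended on the measure. As a ratio of sums, in which near contacts weigh more, it was 1.08 in WT and 1.09 in the Firre KO-labelled matrix. In uncorrected read pairs it was 0.48 and 0.57. The log2 ratio was -0.05 (-0.14 to 0.04), and its interval holds 0. With the expected value taken from all autosomes it was -0.11 (-0.20 to -0.02) and in uncorrected read pairs 0.24 (0.15 to 0.33), so the direction of a difference depended on the setting. None of 57739 blocks of this shape elsewhere had a log2 ratio below -1 (0%) or above 1 (0%). Only 0.0398% of these blocks were as high in WT and 1.48% in the Firre KO-labelled matrix. Cut at its middle, the stretch had higher values between the parts than within them. Contacts between the proximal and the distal part were at 2.57 (2.42 to 2.74) and 2.48 (2.32 to 2.65). Within the proximal part they were at 1.09 (1.02 to 1.18) and 0.99 (0.91 to 1.08), and within the distal part at 0.96 (0.91 to 1.02) and 1.02 (0.96 to 1.10). Bin pairs between the parts lie farther apart on average than those within them. Over all bin pairs of the domain, these included, values were 0.91 and 0.87 at 40 to 360 kb. They were 1.94 and 1.64 from 1 to under 2 Mb. The part of distance in the higher values between the parts was not tested.

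In windows of 200 kb tiled over the domain, 121 window pairs lay at least 400 kb apart with at least 20 of 25 bin pairs kept. The highest pair in the Firre KO-labelled matrix joined chr7:67560001-67760000 with chr7:69360001-69560000, a window that holds Ndn and the Magel2 bin, at 7.57 (5.71 to 9.92) against 4.83 (3.50 to 6.57) in WT. The highest pair in WT joined chr7:67160001-67360000, which holds most of Snrpn, with chr7:69160001-69360000, at 5.24 (3.94 to 7.01) against 2.25 (1.46 to 3.68) in the Firre KO-labelled matrix. The log2 ratios of these pairs were 0.65 (0.07 to 1.22) and -1.22 (-1.90 to -0.54). Both pairs were chosen by their values, so the ratios are a description.

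**Figure D3:**
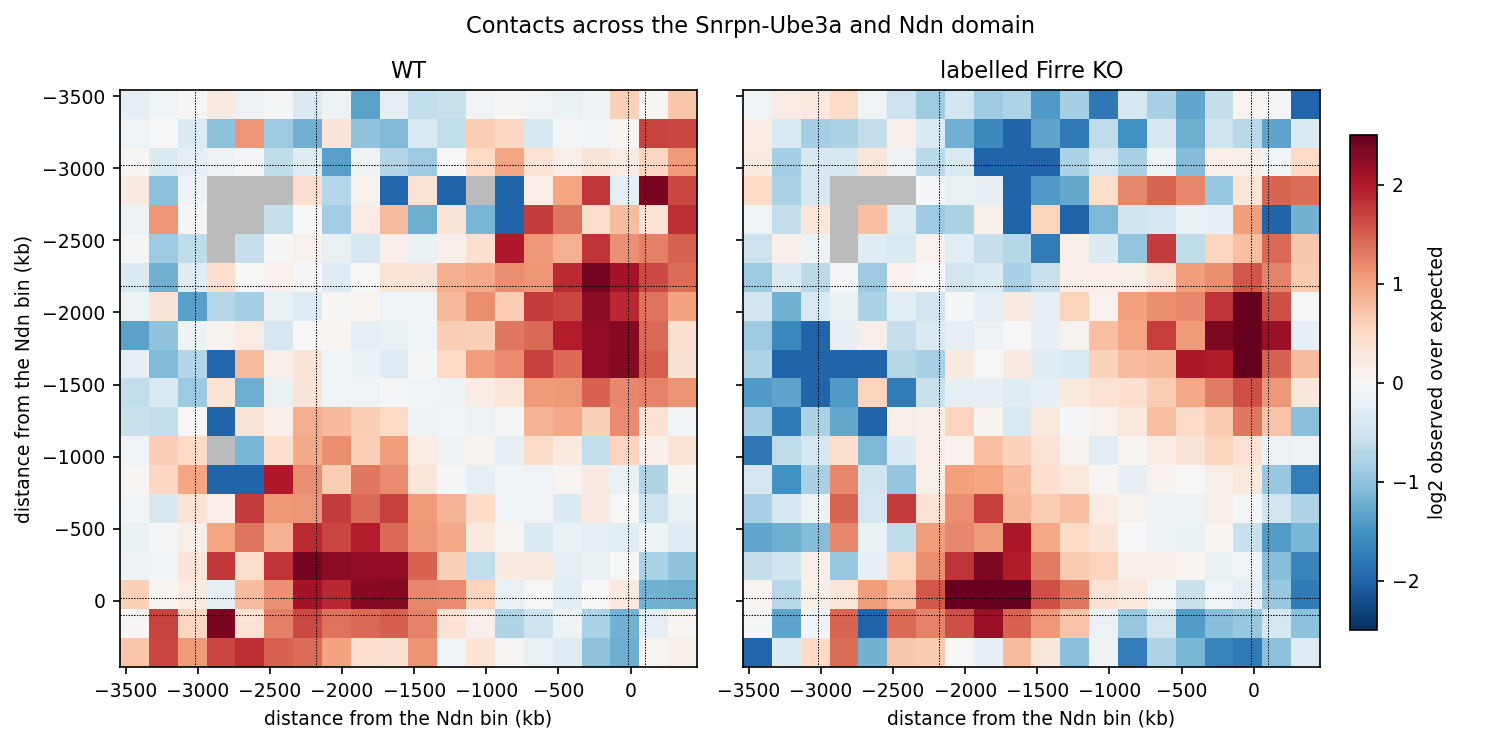
Log2 of observed over expected contacts between windows of 200 kb in WT (left) and the Firre KO-labelled matrix (right), both axes giving the distance of the window from the Ndn bin in kb, with dotted lines at the borders of the 5 segments. Values are drawn no lower than 0.25 before taking log2, grey cells have fewer than 5 bin pairs kept, and the red block joins the first part of the gene-poor stretch with the Ndn side in both matrices.

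The Snrpn-Ube3a side and the Ndn side had a lower value with each other in the Firre KO-labelled matrix, on few read pairs. Over 36 kept bin pairs, 36 read pairs in WT gave 3.64 (2.39 to 5.61), and over 39 kept bin pairs, 15 read pairs in the Firre KO-labelled matrix gave 1.52 (0.77 to 3.16). The log2 ratio was -1.26 (-2.26 to -0.25). A log2 ratio below -1 occurred in 20.9% of 56533 blocks of this shape elsewhere, and 14.4% were as low as this one, so such a ratio is common at this distance. Those blocks were not matched for depth, which is lower here. The WT value itself was rarer: 0.0460% of the blocks were as high in WT, and 16.9% were as high as this block in the Firre KO-labelled matrix. With both sides widened by 3 bins, the ratio was -0.32 (-0.73 to 0.09) on 153 and 116 read pairs. In uncorrected read pairs it was -0.81 (-1.68 to 0.07), and both of these intervals hold 0. The other 4 alternatives ran from -1.41 to -1.13 with intervals that exclude 0. Among them were both sides joined with their flanks, at -1.13 (-1.50 to -0.75) on 261 and 97 read pairs. These counts include contacts of the flanks, and only 36 and 15 of them lay between the sides themselves.

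Snrpn carried most of these contacts. It had 27 of the 36 read pairs in WT and 11 of the 15 in the Firre KO-labelled matrix, with 4.78 (3.09 to 7.23) and 1.97 (0.98 to 3.91) to the Ndn side. By gene, Snrpn had 8 and 4 read pairs with Ndn, 11 and 2 with Magel2, and 8 and 5 with Mkrn3. Of these pairs only Snrpn with Magel2 had a ratio whose interval excluded 0, at -2.74 (-4.93 to -0.55), and in uncorrected read pairs that interval, -4.15 to 0.20, held 0. Of autosomal blocks in the shape of Snrpn with Magel2, 2.75% had an interval below 0, counted over the 45619 with a read pair in both matrices and leaving out 10880 without. At the shapes of Snrpn with Ndn and with Mkrn3 it was 2.94% and 2.68%. Ube3a, about 3 Mb from the Ndn side, had 4 read pairs with it in WT and 1 in the Firre KO-labelled matrix, too few to compare. Its values were 2.67 (0.63 to 8.55) and 0.68 (0.02 to 6.49).

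Within each side the members were not above expectation beyond counting error. Ube3a and Snrpn, which lie on either side of the snoRNA arrays, shared 24 read pairs in WT and 8 in the Firre KO-labelled matrix, for 1.13 (0.69 to 1.96) and 0.49 (0.18 to 1.40). The log2 ratio of -1.21 (-2.5 to 0.08) holds 0. Ndn, Magel2 and Mkrn3 had values below 1 with each other in both matrices, and of the 6 intervals 2 hold 1. Ndn with Magel2 had 17 and 13 read pairs, for 0.53 (0.31 to 0.85) and 0.61 (0.33 to 1.05). Ndn with Mkrn3 had 13 and 5, for 0.61 (0.33 to 1.05) and 0.39 (0.13 to 0.90), and Magel2 with Mkrn3 had 13 and 11, for 0.36 (0.19 to 0.62) and 0.45 (0.22 to 0.80). The 3 genes thus had values above 1 with the far end of the stretch and below 1 among themselves.

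Snrpn also had a lower value with the stretch in the Firre KO-labelled matrix. Its value with the whole stretch was 2.14 (1.91 to 2.41) in WT, from 697 read pairs, and 1.21 (1.04 to 1.44) in the Firre KO-labelled matrix, from 364. The log2 ratio was -0.82 (-1.09 to -0.55). Ube3a had 0.85 (0.56 to 1.34) and 0.75 (0.48 to 1.36), with a ratio of -0.18 (-0.96 to 0.61). Ndn, Magel2 and Mkrn3 had ratios of 0.29 (-0.23 to 0.80), 0.18 (-0.27 to 0.63) and 0.12 (-0.44 to 0.68) with the stretch. The interval of Snrpn lay below 0 and those of the other 4 members held 0. Of autosomal blocks in the shape of each member with the stretch, an interval below 0 was found for 44.1% at the shape of Snrpn, 40.2% at that of Ube3a, 27.4% at that of Ndn, 27.5% at that of Magel2 and 27.7% at that of Mkrn3. The share of 1 in 5 members is thus not above this background, which was not matched for depth, and 7.26% of blocks in the shape of Snrpn were as low as its ratio.

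Across all 15 pairs of segments, 8 were lower in the Firre KO-labelled matrix with an interval that excludes 0, none was higher with such an interval, and 7 had an interval that holds 0. Intervals below 0 were found for 35.2% and intervals above 0 for 23.6% of 857608 autosomal blocks of these shapes, so intervals that exclude 0 were common over the autosomes. In uncorrected read pairs 6 of the pairs were lower and 3 were higher, namely the stretch within itself, the stretch with the Ndn side and the proximal flank within itself, the last at 0.15 (0.04 to 0.26). A log2 ratio below -1 was seen for 3 pairs and one above 1 for none. The Snrpn-Ube3a side had 1.60 (1.43 to 1.80) with the stretch in WT and 0.97 (0.84 to 1.16) in the Firre KO-labelled matrix, a ratio of -0.72 (-0.97 to -0.47), and 11.8% of blocks of this shape were as low. With the distal flank it had 2.89 (2.24 to 3.80) and 1.33 (0.94 to 2.02), a ratio of -1.13 (-1.70 to -0.55), and 13.9% were as low. The proximal flank had 2.12 (1.69 to 2.68) and 0.83 (0.52 to 1.35) with the distal flank, a ratio of -1.36 (-2.04 to -0.68), and 10.2% were as low. It had 0.96 (0.85 to 1.09) and 0.53 (0.44 to 0.65) with the stretch, a ratio of -0.87 (-1.16 to -0.57), and 15.3% were as low. In uncorrected read pairs these ratios were -0.38, -0.57, -1.30 and -0.39 in the same order. Contacts of the Ndn side with the stretch were at 2.47 (2.14 to 2.88) and 2.84 (2.44 to 3.32), and the interval of their ratio holds 0, while in uncorrected read pairs the ratio was 0.43 (0.16 to 0.70).

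Shares of same-shape autosomal blocks with a log2 ratio below -1 and above 1 differed between the shapes. They were 0.0529% and 0% within the proximal flank, 2.52% and 0.0652% for the proximal flank with the Snrpn-Ube3a side, 11.2% and 2.56% for the proximal flank with the gene-poor stretch, 23.1% and 9.21% for the proximal flank with the Ndn side and 17.8% and 5.75% for the proximal flank with the distal flank. They came to 0.0227% and 0% within the Snrpn-Ube3a side, 4.67% and 0.549% for the Snrpn-Ube3a side with the gene-poor stretch, 20.9% and 6.7% for the Snrpn-Ube3a side with the Ndn side, 17.1% and 5.12% for the Snrpn-Ube3a side with the distal flank and 0% and 0% within the gene-poor stretch. They reached 3.9% and 0.727% for the gene-poor stretch with the Ndn side, 5.93% and 0.775% for the gene-poor stretch with the distal flank, 0.433% and 0.0342% within the Ndn side, 1.3% and 0.0877% for the Ndn side with the distal flank and 0.0636% and 0% within the distal flank. Most blocks of every shape thus stayed within these limits.

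The distal flank, which holds Peg12, had fewer contacts within itself in the Firre KO-labelled matrix. Its value was 1.05 (0.99 to 1.12) in WT from 1732 read pairs and 0.66 (0.60 to 0.73) in the Firre KO-labelled matrix from 813, a log2 ratio of -0.67 (-0.83 to -0.51). Of the blocks of this shape elsewhere, 0.0636% were below -1 and 0.294% were as low as this ratio. As a ratio of sums, in which near contacts weigh more, it was -0.38. Contacts of the Ndn side with the distal flank were low in both, at 0.46 (0.38 to 0.56) and 0.28 (0.21 to 0.39), with a ratio of -0.70 (-1.19 to -0.21), and 4.33% of blocks of this shape were as low. Most of that difference was at Mkrn3, the member nearest to the flank, with 111 read pairs in WT and 27 in the Firre KO-labelled matrix, a ratio of -1.88 (-2.63 to -1.13). Of autosomal blocks of that shape, 17.9% had an interval below 0 and 0.0603% were as low as this ratio. None of these sets of autosomal blocks was matched for depth, which is lower in most bins here. Ndn, the farthest of the 3, had 27 and 23 read pairs, a ratio of 0.32 (-0.56 to 1.2).

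**Figure D4:**
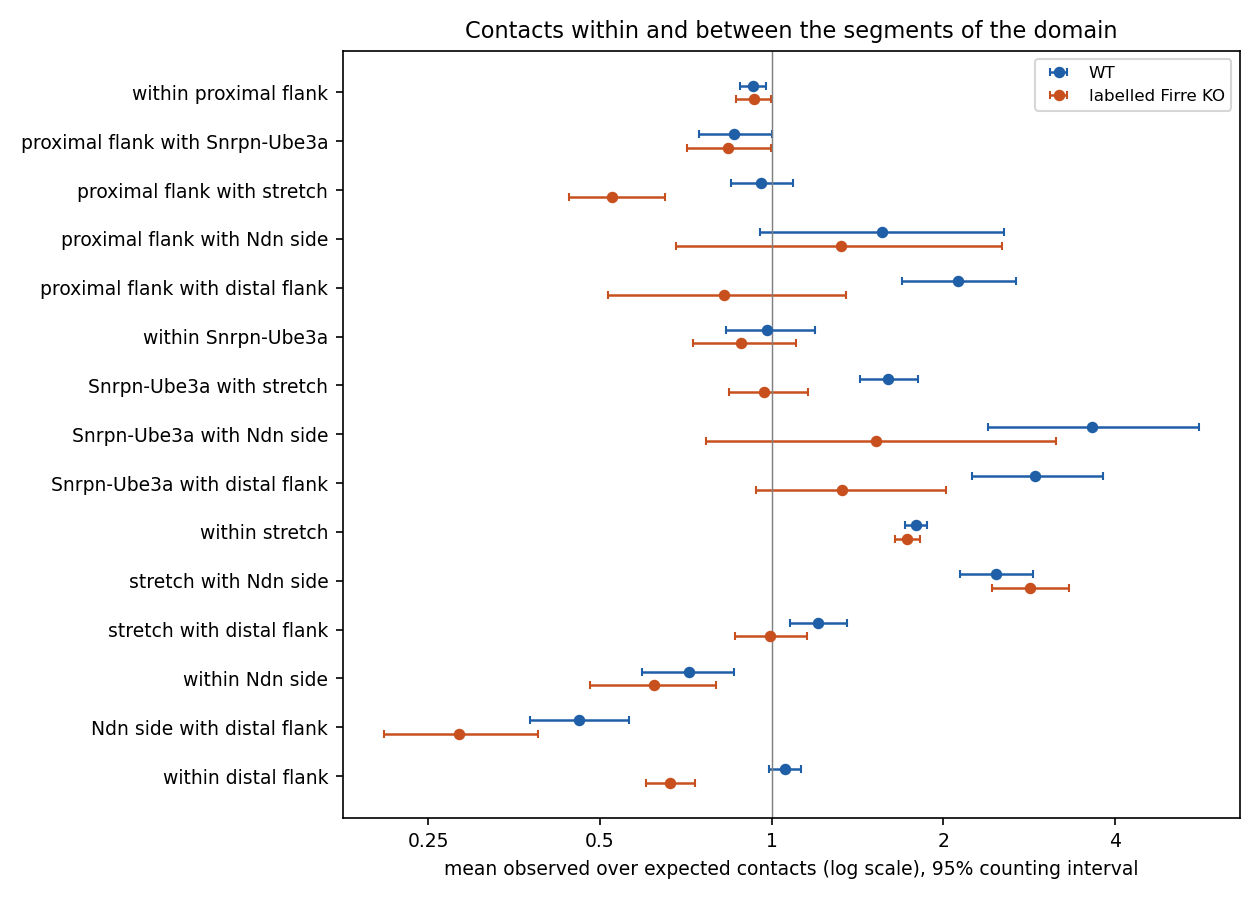
Mean observed over expected contacts within and between the 5 segments of the domain on a log axis, in WT (blue) and the Firre KO-labelled matrix (orange), with bars for 95% counting intervals and a line at 1. The pair of the Snrpn-Ube3a side and the Ndn side has 3.64 in WT and 1.52 in the Firre KO-labelled matrix, while the stretch has 1.79 and 1.73 within itself.

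Of 5 distance classes, the one with the farthest bin pairs had the lowest ratio. At 2 Mb and more, the mean was 1.84 (1.68 to 2.03) in WT and 1.15 (1.02 to 1.30) in the Firre KO-labelled matrix, a log2 ratio of -0.69 (-0.89 to -0.48). From 1 to under 2 Mb it was 1.94 (1.84 to 2.06) and 1.64 (1.54 to 1.77), a ratio of -0.24 (-0.36 to -0.12). From 40 to 360 kb the ratio was -0.07 (-0.14 to 0.01). In uncorrected read pairs the levels were 0.63 in WT and 0.48 in the Firre KO-labelled matrix at 2 Mb and more, a smaller difference, and 0.55 and 0.57 from 1 to under 2 Mb, where the direction was the opposite. Autosomal blocks in the shapes of the farthest segment pairs had median log2 ratios from -0.28 to -0.22, so a ratio below 0 was usual at such distances.

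Insulation was read as the log2 of the mean contact signal in a square of 480 kb that spans each bin, over the mean of the chromosome, where a lower score means fewer contacts across the bin. The interquartile mean of the square was used, after the methods. In the squares of the domain many bin pairs had no read pair, for the 5 members 13.9% to 22.1% in WT and 35.4% to 39.6% in the Firre KO-labelled matrix, against 3.54% and 9.63% over all autosomal bins. The interquartile mean leaves out empty pairs where they are too few to reach its lower quartile, and otherwise keeps them. The part of these empty pairs in the scores was not tested, and the plain mean of the square, which uses every pair, is given beside them with its counting interval.

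All 5 members had a lower score in the Firre KO-labelled matrix than in WT. Ndn had -0.65 in WT and -2.03 in the Firre KO-labelled matrix, Magel2 had -0.86 and -2.28, and Mkrn3 had -1.09 and -2.34. Ube3a had -0.44 and -0.94 over 3 bins, and Snrpn had -0.00 and -0.75 over 5. The 3 genes of the Ndn side were thus the more insulated ones in both matrices, and their scores were in the order Ndn, Magel2, Mkrn3 in both. Of the 11 member bins, 9 differed by less than -0.5, where 18.2% of 58450 autosomal bins did, and none by more than 0.5, where 7.58% did. With the plain mean, 2 of the 11 bins did so, where 10.5% of autosomal bins did, and none by more than 0.5, where 3.76% did. The autosomal bins were not matched for depth or for empty bin pairs, which were more frequent at the members.

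With a square of 240 kb the differences of the Firre KO-labelled matrix minus WT were much smaller, at -0.19 for Ndn, -0.06 for Magel2, -0.26 for Mkrn3, -0.19 for Ube3a and -0.15 for Snrpn. With the plain mean of the 480 kb square they were also smaller. They were -0.49 (-0.74 to -0.25) at Ndn, -0.39 (-0.66 to -0.12) at Magel2 and -0.35 (-0.64 to -0.06) at Mkrn3. At Ube3a the difference was -0.44 (-0.88 to 0.01) and at Snrpn -0.24 (-0.56 to 0.08), and both of these intervals hold 0. Over the 11 member bins the difference was -0.84 with the interquartile mean and -0.34 (-0.54 to -0.14) with the plain mean. With a square of 960 kb the difference at Snrpn was larger, at -2.04, and at Ube3a it was 0.66, the opposite direction. The scores of Ube3a and Snrpn rest on squares that reach into the snoRNA arrays. In WT these squares had 36 to 48 of 144 bin pairs kept at Ube3a and 48 to 84 at Snrpn. In the Firre KO-labelled matrix they had 48 to 60 and 60 to 96. With only the bins kept in both matrices, the difference with the interquartile mean was -0.11 at Ube3a and -0.65 at Snrpn. It was -1.39 at Ndn, -1.42 at Magel2 and -1.25 at Mkrn3, and -0.70 over the 11 member bins.

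The distal flank differed in insulation about as much as the Ndn side with the interquartile mean and more than any other segment with the plain mean. Its mean score was -0.90 in WT and -2.22 in the Firre KO-labelled matrix. Of its 12 bins, 11 differed by less than -0.5, where 18.2% of autosomal bins did. With the plain mean it had -0.65 and -1.34, a difference of -0.70 (-0.86 to -0.54). By that mean 9 of the 12 bins differed by less than -0.5, where 10.5% of autosomal bins did. In the squares of this flank 14.2% of bin pairs in WT and 37.3% in the Firre KO-labelled matrix had no read pair. In the gene-poor stretch the plain mean differed by -0.11 (-0.19 to -0.02), and in the proximal flank by 0.17 (0.03 to 0.30), the only segment that was higher in the Firre KO-labelled matrix. With the square of 480 kb both profiles had the same general course, with a correlation of 0.825 (Pearson's r) or 0.84 (Spearman's rho) over 93 bins. With a square of 240 kb r was only 0.493, and under the other alternatives it ran from 0.843 to 0.893. Neighbouring bins share most of their squares and are not independent. Over the autosomes r ran from 0.741 to 0.817.

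With the interquartile mean the score was highest and lowest at different places in the matrices. In WT the highest bin of the domain was chr7:68080001-68120000 in the stretch, at 0.58, and the lowest was chr7:66760001-66800000 between Ube3a and Snrpn, at -1.95. In the Firre KO-labelled matrix the highest was chr7:66160001-66200000 in the proximal flank, at 0.94, and the lowest was chr7:69800001-69840000 in the distal flank, at -2.62. The lowest WT bin had 56 of 144 bin pairs of its square kept, and it lies inside the SNORD115 array. With the plain mean the lowest bins were neighbours, the Mkrn3 bin chr7:69560001-69600000 in WT, at -1.09, and chr7:69600001-69640000 in the Firre KO-labelled matrix, at -1.70.

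**Figure D5:**
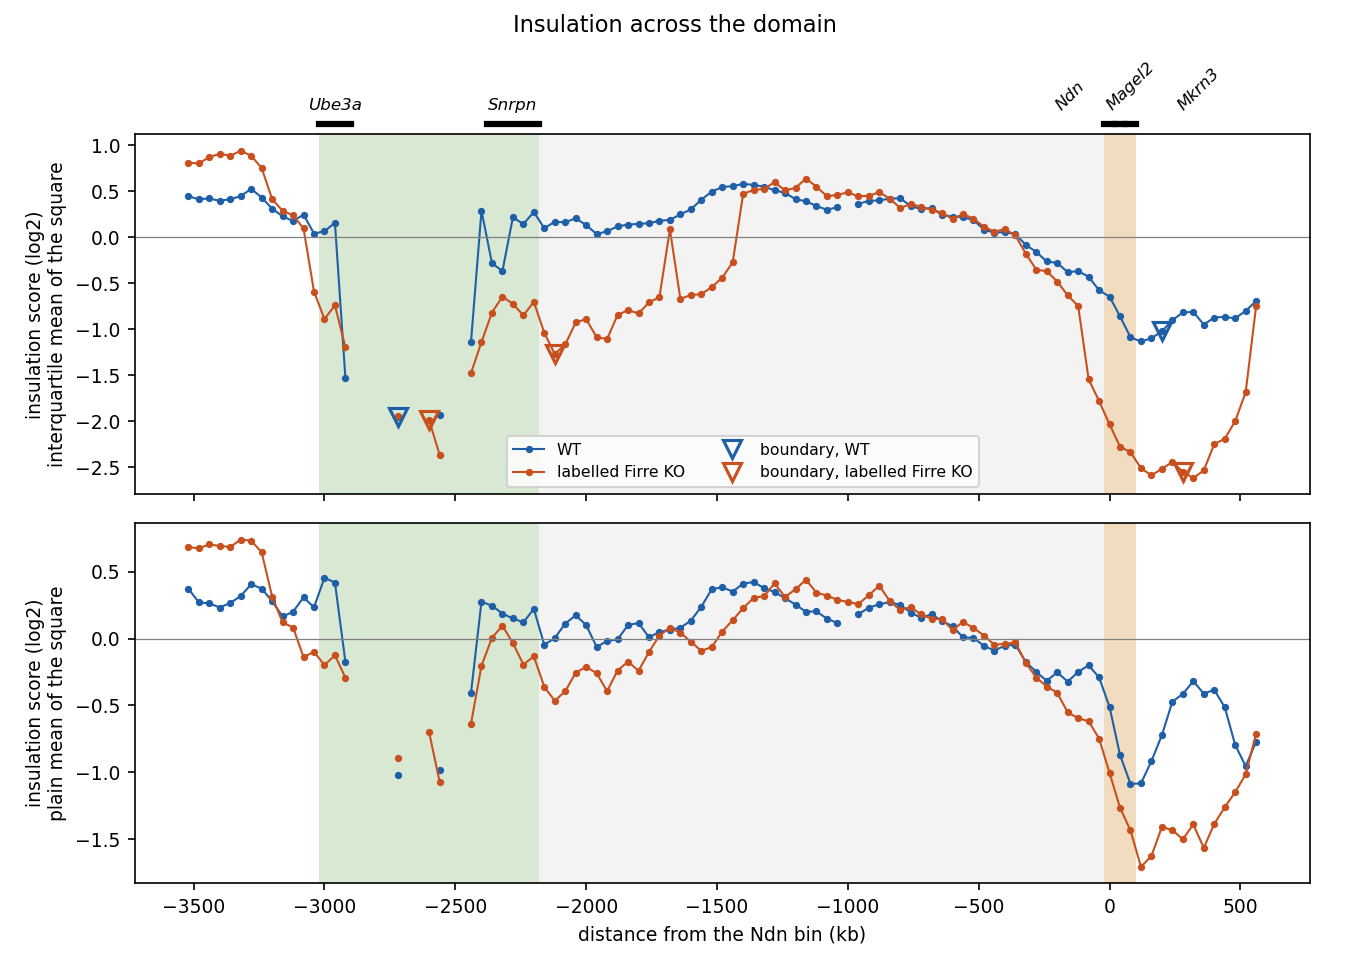
Insulation score (log2) of each 40 kb bin with the interquartile mean (top) and the plain mean (bottom) of the 480 kb square, against the distance from the Ndn bin in kb, with member genes as black bars, triangles for boundaries and shading as in the plot of read pairs. Scores at the Ndn side are lower than in the stretch in both matrices, and in the distal flank the Firre KO-labelled matrix lies below WT by 0.70 on average in the plain mean.

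Boundaries were called between Ube3a and Snrpn and distal to Mkrn3 in both matrices, but not in the same bins. WT had 2 boundaries, at chr7:66760001-66800000 with a strength of 4.01 and at chr7:69680001-69720000 with 1.56. The Firre KO-labelled matrix had 3, at chr7:66880001-66920000 with 3.18, at chr7:67360001-67400000 with 1.06 and at chr7:69760001-69800000 with 4.16. None was shared within 1 bin, which with 2 and 3 boundaries allows shares of up to 65.8% and 56.1% (Wilson), and over the autosomes 44.1% and 47.7% were shared. This count depended on the setting, since 1 boundary was shared with the plain mean and with squares of 240 or 960 kb and 2 were shared in uncorrected read pairs. WT had no score in the bin at chr7:66880001-66920000, so no boundary could be called there. The first pair lay 120 kb apart and the distal pair 80 kb apart, so 2 WT boundaries were matched within 3 bins. The boundary in the Firre KO-labelled matrix at chr7:67360001-67400000, at the start of the stretch next to Snrpn, had no WT boundary nearer than 600 kb. Its square held 190 read pairs over 120 kept bin pairs, and its score was -1.27, or -0.47 with the plain mean. Over the autosomes the median strength was 1.13 in WT and 1.81 in the Firre KO-labelled matrix, so strengths of the matrices are not on a like scale.

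The boundaries between Ube3a and Snrpn rest on few data. The WT one lies inside the SNORD115 array and the other in the gap between the arrays, and their squares held 77 and 51 read pairs over 56 and 60 kept bin pairs. The distal boundaries rested on all 144 bin pairs, with 446 read pairs at the WT boundary and 181 at the one of the Firre KO-labelled matrix. No member gene lay in a boundary bin, and both distal boundaries lay in the distal flank.

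The compartment of the domain was read from the first eigenvector of chromosome 7 in windows of 200 kb, with its sign set so that gene-dense windows are positive. Of 18 windows with a value in both matrices, none was positive in WT and 1, chr7:66000001-66200000 in the proximal flank, was positive in the Firre KO-labelled matrix. Over chromosome 7, 46.3% and 36.2% of windows were positive. The sign differed between the matrices in 19.9% of the 674 windows of chromosome 7 and in 5.56% of those of the domain. The windows of all members that had a value were negative in both matrices. In windows of 400 kb none was positive in either matrix, so the single difference in sign was not seen there. In uncorrected read pairs 50% of the domain windows differed in sign, so this reading rests on the correction. The eigenvector followed gene density weakly, with Spearman's rho of 0.39 and 0.26 over 674 windows of chromosome 7.

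Contacts with other chromosomes were more frequent throughout the domain in the Firre KO-labelled matrix, as they were in the whole matrix. Read pairs were summed over bins, so a pair that joined different bins of the domain counted in each of them. The intervals take these counts as independent. Of the counts of the domain bins, 13.9% (Wilson 95% interval 13.6% to 14.1%) joined another chromosome in WT and 36.6% (36.3% to 37.0%) in the Firre KO-labelled matrix. The difference was 22.8 percentage points (22.3 to 23.2), while all autosomal bins had 16.8% and 36.8%. By member, the shares were 12.8% and 37.9% at Ndn, 12.9% and 37.9% at Magel2, 13.4% and 41.9% at Mkrn3, 17.6% and 39.8% at Ube3a and 15.9% and 39.2% at Snrpn. The Ndn side, with 26.3 points (24 to 28.6), and the distal flank, with 25.6 (24.5 to 26.8), were above the proximal flank, with 20.2 (19.3 to 21.1). The part of these shares in the lower contacts of the distal flank was not tested.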

How the data were processed

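Hi-C of male mESCs labelled WT and Firre KO was analysed, with 2 libraries per group in 1 matrix each. Per the labels and the submitters' processing notes, the authors mapped reads to mm9 and made 40 kb matrices with HiC-Pro 2.7.8, and the deposited values are a contact signal after iterative correction, in which every kept bin has the same total. The bin tables give positions only. A deposited value equals a read-pair count multiplied by the weights of its bins. These weights were solved for, and the counts obtained were within 0.05 of a whole number for 100% of entries.

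Insulation and boundaries used an own implementation of the study's settings, with a square of 480 kb, smoothing over 160 kb, a delta over 320 kb on each side and a strength above 0. A score needed 25% of the square's bin pairs. Boundaries were shared within 1 bin. For contacts, observed over expected was averaged over kept bin pairs. Intervals at the 95% level came from the gamma method for weighted counts, the delta method for ratios and insulation, and Wilson's method for shares. They cover counting error only, since PCR copies cannot be told from separate molecules here, and with no replicate matrix there is no p-value. The background was every autosomal block of the same shape with at least 50% of its pairs kept, outside the domain, with 1 on the log2 scale as the limit, or 0.5 for insulation. It was not matched for depth. Genes came from the GENCODE annotation of mm9, whose 22 chromosome lengths equal those of the bins. Named were the 5 members, the genes of a list of neighbours where annotated, and bins with a boundary or an extreme score. The miR-344 genes, the first 720 kb of the stretch and the highest window pairs were named after their values were seen. The members and lists were chosen with earlier results of these data known. Scripts were tested on simulated data and run in Python 3.11.15 with numpy 2.4.6, scipy 1.17.1 and pandas 2.3.3.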

Additional observations from a re-analysis of the deposited data

How the results depend on the processing

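The size of the insulation differences changed with the processing. The mean difference over the member bins, -0.84 as reported, was -0.16 with a square of 240 kb and -1.05 with 960 kb. It was -0.34 with the plain mean, -0.41 in uncorrected read pairs and -0.70 with only the bins kept in both matrices. It was -1.17 with squares at least 50% covered, an alternative chosen after seeing the data in which Ube3a has no score. For single members, 28 of 29 alternatives were below 0, and the exception was Ube3a at 960 kb with 0.66. The correlation of the profiles was 0.493 at 240 kb, 0.893 in uncorrected read pairs and 0.879 with squares at least 50% covered. The number of shared boundaries was 2 within 3 bins and 2 in uncorrected read pairs, and 1 at 240 kb, at 960 kb and with the plain mean. Contacts within the stretch had a log2 ratio of 0.24 in uncorrected read pairs. Of the 15 segment pairs, 6 were lower and 3 higher with intervals that exclude 0 in uncorrected read pairs, and 8 or 9 were lower and none higher under the other alternatives. The share of domain windows whose compartment differs in sign was 0% at 400 kb and 50% in uncorrected read pairs, and the difference in contacts with other chromosomes was 21.3 points in corrected values. The cause of these shifts was not tested. The ratio between the Snrpn-Ube3a side and the Ndn side stayed below 0 under its 6 alternatives, from -1.41 to -0.32. The ratio of the Ndn side with the first 720 kb of the stretch stayed above 0 under its 6, chosen after seeing the data, from 0.24 to 0.57. Of the intervals of the latter ratio, only the one in uncorrected read pairs excluded 0. No paired analysis was possible because both libraries of a group are pooled in 1 matrix, and for the same reason no library could be left out. Member pairs with fewer than 10 read pairs can show only large differences at this depth.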
